A study of Homo sapiens with 18 samples.

Results

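The 10 genes described here are the parts of the switch that takes a cell out of G1 phase: the D-type cyclins CCND1, CCND2 and CCND3, the kinases CDK4 and CDK6 that they bind, the CIP/KIP inhibitors CDKN1A, CDKN1B and CDKN1C, the retinoblastoma gene RB1, and MDM2, which restrains p53. They were taken by gene symbol through their Ensembl gene identifiers, 10 of the 61806 genes in the count table. A D-type cyclin activates CDK4 or CDK6, and the active kinase phosphorylates the RB1 protein, which then releases E2F transcription factors that switch on genes of DNA replication. The CIP/KIP proteins bind cyclin-kinase complexes, and CDKN1A and MDM2 are both switched on by p53, while the MDM2 protein marks p53 for degradation. HepG2 is a human hepatoma line, and in hepatocytes CCND1 is the D-type cyclin best known for driving entry into the cycle.

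Poly(A) RNA was sequenced from HepG2 cells of wild-type genotype and from APOA4-KO, a HepG2 line edited in APOA4 with CRISPR-Cas9. Each line gave 3 libraries before hypoxia (0 h), 3 after 24 h in 1% oxygen and 3 after 48 h, which makes 6 groups. By the study's methods, guides aimed at exon 1 to exon 3 of APOA4 and single colonies were picked. The APOA4-KO line is therefore treated here as 1 edited line. Whatever else sets the edited cells apart from their parent is part of each contrast between lines. Cells kept in air for 24 h or 48 h were not analysed here, so hypoxia and time in culture cannot be told apart. No label says that the 3 libraries of a group came from separate cultures, and the p-values then measure the spread between these libraries only. In RNA of a whole culture, fewer cells with a transcript and less of it per cell cannot be told apart. No value here is one of protein. From flow cytometry, the paper reports that loss of APOA4 left the cell cycle of these cells uninfluenced, while their seeding efficiency fell. It does not state whether those cells were in hypoxia.

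Total counts lay between 76481820 and 91604947 per library, and 19743 genes passed the filter on low counts. APOA4 itself, the edited gene, was still counted in every library, and at each time every APOA4-KO library lay below every HepG2 library. In CPM (counts scaled to library size), APOA4-KO held 6.99 to 8.35 against 8.46 to 9.67 in HepG2 at 0 h, 7.51 to 8.25 against 19.8 to 21.0 at 24 h, and 7.65 to 8.54 against 18.9 to 21.7 at 48 h. The 10 hepatocyte markers were all detected, with a summed level of 57730 to 86220 CPM per library. The 6 macrophage markers summed to between 1080 and 2850 CPM, nearly all of it LYZ (group means of 1039 to 2739 CPM). Group means were 28.7 to 69.3 CPM for CD68, 4.59 to 7.73 for CD14, 2.47 to 5.28 for PTPRC, and at most 0.417 for SPI1 and CSF1R. At 48 h LYZ and CD68 were higher in APOA4-KO by 1.24 and 0.71 (edgeR adjusted p = 2.73e-18 and 2.67e-09). Fibroblast and endothelial markers summed to between 6.40 and 14.8 CPM. The summed hepatocyte and macrophage markers were highest in the hypoxic APOA4-KO groups, and their part in the results was not tested.

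Of the 10 genes, 9 passed the filter and were tested. Levels are given in CPM after TMM scaling, in the order of replicates 1, 2 and 3, and changes as log2 fold changes from edgeR's quasi-likelihood test. Their standard errors are approximate, computed as the absolute log2 fold change divided by the square root of the F statistic of that test. A gene was called at a Benjamini-Hochberg adjusted p under 0.05 over all 19743 genes.

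At 48 h the differences between the lines split within families. In APOA4-KO after 48 h, CCND2, CCND3 and CDK4 were lower than in HepG2 by 1.25, 1.67 and 1.03 on the log2 scale. By contrast, CCND1, CDK6 and CDKN1B were higher by 0.33, 0.41 and 0.58. The latter values depended on scaling, reaching down to 0.18, 0.24 and 0.37 over 16 alternatives, all of them called. The differences of CCND2, CCND3 and CDK4 shrank to as little as -0.65, -1.10 and -0.98 over the same 16 alternatives, also all called. CDKN1A was lower by 1.00 before hypoxia and by 0.31 at 48 h. The split was not the same at each time. At 0 h all D-type cyclins were lower in APOA4-KO, CCND1 by 0.34, CCND2 by 1.46 and CCND3 by 0.62. CCND1 gave 0.03 at 24 h and CDKN1B gave 0.04 at 0 h, and neither was called. CDK4 was lower and CDK6 higher at each time.

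CCND1 (ENSG00000110092, chromosome 11, 69641087 to 69654474, plus strand, GRCh38) was the most abundant D-type cyclin. In HepG2, its libraries stood at 295, 293 and 299 CPM at 0 h, at 307, 312 and 315 CPM at 24 h, and at 319.9, 324 and 320.2 CPM at 48 h. In APOA4-KO, they stood at 232, 233 and 233 CPM at 0 h, at 312, 327 and 313 CPM at 24 h, and at 394, 401 and 416 CPM at 48 h. The 0 h libraries of APOA4-KO were thus the lowest of all 18 and its 48 h libraries the highest, and the lines overlapped at 24 h. Relative to HepG2, CCND1 was lower in APOA4-KO at 0 h (-0.34 ± 0.02 SE, adjusted p = 9.7e-10), gave 0.03 at 24 h (adjusted p = 0.358), and was higher at 48 h (0.33 ± 0.02, adjusted p = 3.91e-10). Within APOA4-KO it rose by 0.45 at 24 h (adjusted p = 7.39e-12) and by 0.79 at 48 h (adjusted p = 1.19e-15). Within HepG2 it rose by 0.08 at 24 h (adjusted p = 0.0165) and by 0.12 at 48 h (adjusted p = 4.09e-04). The change from 0 h differed between the lines by 0.37 at 24 h (adjusted p = 4.73e-08) and by 0.67 at 48 h (adjusted p = 6.69e-12). The small HepG2 rise at 24 h ended under scaling by library size alone (0.0027, adjusted p = 0.954) and without HepG2 0 h replicate 2 (adjusted p = 0.0641), HepG2 24 h replicate 2 (0.0554) or HepG2 24 h replicate 3 (0.0739), with adjusted p from 2.93e-05 to 0.954 over the 16 alternatives.

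CCND2 (ENSG00000118971, chromosome 12, 4273772 to 4305350, plus strand), a second D-type cyclin, was rare in these cells. HepG2 libraries held 11.4, 8.80 and 10.9 CPM at 0 h, 8.26, 8.88 and 7.38 CPM at 24 h, and 11.4, 10.9 and 10.96 CPM at 48 h. APOA4-KO libraries held 4.05, 3.49 and 3.77 CPM at 0 h, 4.17, 5.16 and 5.21 CPM at 24 h, and 4.93, 4.83 and 4.21 CPM at 48 h. Every APOA4-KO library lay below every HepG2 library, at all times. CCND2 was lower in APOA4-KO by 1.46 ± 0.12 at 0 h (edgeR adjusted p = 1.9e-08), by 0.75 ± 0.12 at 24 h (2.32e-05) and by 1.25 ± 0.12 at 48 h (3.69e-08). The changes in time were smaller and less firm. HepG2 fell by 0.35 at 24 h (adjusted p = 0.0303, and from 0.00497 to 0.161 over 16 alternatives, 8 of which ended the call), and APOA4-KO rose by 0.36 at 24 h (0.0186, ended by 6 of 16, with a highest of 0.0965) and by 0.30 at 48 h (0.0428, ended by 10 of 16, with a highest of 0.475). The libraries whose omission ended a call were HepG2 0 h replicates 1 and 3 and HepG2 24 h replicates 1 and 3 for the first (highest adjusted p 0.161), APOA4-KO 0 h replicate 2 and APOA4-KO 24 h replicates 2 and 3 for the next (highest 0.0758), and APOA4-KO 0 h replicates 2 and 3 and APOA4-KO 48 h replicates 1 and 2 for the last (highest 0.122). Subtracting the HepG2 change from the APOA4-KO change left 0.71 ± 0.17 for 24 h (adjusted p = 0.00251) and 0.21 ± 0.17 for 48 h (0.373). In the gene models of GENCODE release 29, 13.8% of the exon bases of CCND2 are shared with neighbouring genes.

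CCND3 (ENSG00000112576, chromosome 6, 41934933 to 42050357, minus strand), the remaining D-type cyclin, fell in hypoxia in both lines and fell further in APOA4-KO. HepG2 libraries stood at 24.2, 25.5 and 24.7 CPM at 0 h, at 16.3, 15.1 and 14.4 CPM at 24 h, and at 15.5, 16.4 and 17.0 CPM at 48 h. APOA4-KO libraries stood at 15.1, 17.0 and 16.1 CPM at 0 h, at 6.16, 5.52 and 4.70 CPM at 24 h, and at 5.66, 4.63 and 5.12 CPM at 48 h. APOA4-KO before hypoxia thus overlapped HepG2 in hypoxia, and its 6 hypoxic libraries lay below all others. CCND3 fell by 0.70 ± 0.09 at 24 h and by 0.61 ± 0.09 at 48 h in HepG2 (edgeR adjusted p = 4.53e-06 and 2.85e-05), and by 1.56 ± 0.09 and 1.65 ± 0.09 in APOA4-KO (5.75e-11 and 2.14e-11). The fall in APOA4-KO exceeded that in HepG2, with a line difference of -0.86 ± 0.13 for 24 h (adjusted p = 2.56e-05) and -1.04 ± 0.13 for 48 h (2.06e-06). With log2(FPKM + 1), which shrinks low levels, these came to -0.39 (limma adjusted p = 0.0017) and -0.63 (1.69e-05). Between 24 h and 48 h the fits gave 0.09 in HepG2 (adjusted p = 0.506) and -0.09 in APOA4-KO (0.501). Relative to HepG2, APOA4-KO was lower by 0.62 at 0 h, by 1.48 at 24 h and by 1.67 at 48 h (adjusted p = 1.77e-05, 1.04e-10 and 1.69e-11).

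CDK4 (ENSG00000135446, chromosome 12, 57747727 to 57756013, minus strand) and CDK6 (ENSG00000105810, chromosome 7, 92604921 to 92836594, minus strand) are the kinase partners of the D-type cyclins. CDK4 in HepG2 stood at 227, 232 and 235 CPM at 0 h, at 172, 164 and 168 CPM at 24 h, and at 235, 234 and 231 CPM at 48 h. In APOA4-KO it stood at 212, 199.9 and 199.7 CPM at 0 h, at 122, 116 and 122 CPM at 24 h, and at 115, 109 and 118 CPM at 48 h. HepG2 was back in its 0 h range at 48 h, and the hypoxic APOA4-KO libraries, which overlapped between 24 h and 48 h, lay below all others. CDK4 fell by 0.46 ± 0.03 in HepG2 at 24 h (edgeR adjusted p = 2.98e-09), gave 0.01 at 48 h (0.856), and rose by 0.47 between the times (2.78e-09). In APOA4-KO it fell by 0.76 ± 0.03 at 24 h and by 0.84 ± 0.03 at 48 h (adjusted p = 9.61e-13 and 1.44e-13). Its changes differed between the lines by -0.30 ± 0.05 at 24 h (4.88e-05) and -0.85 ± 0.05 at 48 h (5.4e-11). Relative to HepG2, APOA4-KO was lower by 0.18 at 0 h, by 0.48 at 24 h and by 1.03 at 48 h (adjusted p = 2.81e-04, 4.45e-10 and 6.75e-15). TSPAN31, on the opposite strand, overlaps 43.2% of the CDK4 exon sequence, and whether the counting used strand is not stated, so reads of the pair may not be told apart. TSPAN31 was counted at 8.67 to 19.4 CPM, and its level in APOA4-KO relative to HepG2 differed by -0.56 before hypoxia, -0.48 after 24 h and -0.19 after 48 h (adjusted p = 0.00338, 0.00577 and 0.275).

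From 0 h, CDK6 rose in both lines. Its HepG2 libraries stood at 85.3, 86.7 and 84.5 CPM at 0 h, at 97.0, 102 and 98.5 CPM at 24 h, and at 105, 112 and 109 CPM at 48 h. Its APOA4-KO libraries stood at 95.1, 98.4 and 101 CPM at 0 h, at 170.3, 176 and 167 CPM at 24 h, and at 145, 141 and 148 CPM at 48 h. The 6 hypoxic APOA4-KO libraries lay above all others, those at 24 h the highest. CDK6 rose by 0.21 ± 0.03 at 24 h and by 0.35 ± 0.03 at 48 h in HepG2 (edgeR adjusted p = 3.7e-05 and 1.3e-07). In APOA4-KO it rose by 0.80 ± 0.03 and by 0.56 ± 0.03 (3.08e-13 and 2.89e-11), with a fall of 0.24 between 24 h and 48 h (4.55e-06). APOA4-KO was higher than HepG2 by 0.20 at 0 h, by 0.79 at 24 h and by 0.41 at 48 h (adjusted p = 8.82e-05, 3.4e-13 and 2.36e-09). The rise was larger in APOA4-KO by 0.59 ± 0.05 at 24 h (1.21e-08) and by 0.21 ± 0.05 at 48 h (9.87e-04). The latter came to 0.04 under scaling by library size alone (adjusted p = 0.589, the highest over 22 alternatives, whose lowest was 6.06e-06).

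The deposited FPKM values, which divide by gene length, allow the levels of different genes to be set side by side. In HepG2 the CDK4 to CDK6 ratio of FPKM went from 10.7 ± 0.26 (SD, n = 3) before hypoxia to 6.71 ± 0.33 at 24 h and 8.48 ± 0.31 at 48 h. In APOA4-KO it was 8.23 ± 0.51, 2.78 ± 0.15 and 3.12 ± 0.06. No hypoxic APOA4-KO library had a ratio above 3.17, and no other library had one below 6.37. CCND1 made up 91.7% of the summed D-type cyclin FPKM in HepG2 at 0 h and 98.3% in APOA4-KO at 48 h, while CCND3 went from 6.34% ± 0.21 to 3.93% ± 0.17 in HepG2 and from 5.33% ± 0.30 to 1.02% ± 0.12 in APOA4-KO between 0 h and 48 h. These are descriptions of RNA, and no test of the ratio or the shares was made.

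**Figure D1:**
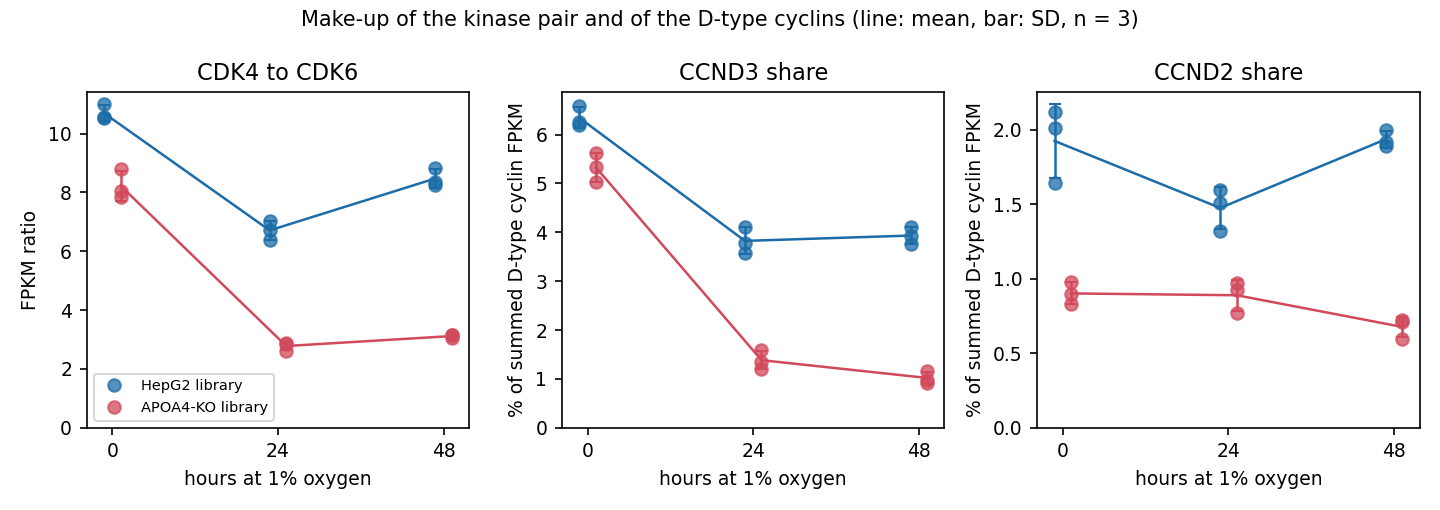
The CDK4 to CDK6 ratio of FPKM and the shares of CCND3 and CCND2 in the summed D-type cyclin FPKM, in percent, per library against hours at 1% oxygen (HepG2 blue, APOA4-KO red, lines join means, bars are SD, n = 3). The ratio fell to 2.78 in APOA4-KO at 24 h and to 6.71 in HepG2.

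Because CDK4 fell and CDK6 rose at 24 h in both lines, the 250 bases before a start site of each are shown. This opposition did not hold throughout, as both genes rose in HepG2 from 24 h to 48 h (by 0.47 and 0.13). The bases are from RefSeq on GRCh38.p14 and written 5′ to 3′ on the strand of the gene. In the CDK4 window, chr12:57752311-57752560 (minus strand), capitals mark the E-box CACGTG, a motif bound by factors of the MYC and MAX family, which reads the same on both strands. In the CDK6 window, chr7:92833960-92834209 (minus strand), which precedes the more downstream of the 2 starts listed, capitals mark ACGTG on either strand, the core of hypoxia response elements.
CDK4: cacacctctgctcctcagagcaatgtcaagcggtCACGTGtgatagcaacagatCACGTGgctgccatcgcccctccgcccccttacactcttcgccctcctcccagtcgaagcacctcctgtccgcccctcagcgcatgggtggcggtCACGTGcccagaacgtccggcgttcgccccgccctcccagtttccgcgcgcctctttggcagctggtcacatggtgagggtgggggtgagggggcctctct
CDK6: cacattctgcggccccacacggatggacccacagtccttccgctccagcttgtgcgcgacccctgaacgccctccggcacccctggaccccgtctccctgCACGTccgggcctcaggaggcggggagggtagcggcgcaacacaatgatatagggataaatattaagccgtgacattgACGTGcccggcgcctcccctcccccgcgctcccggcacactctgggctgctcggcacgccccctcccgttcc
The CDK4 window held 3 copies of CACGTG, beginning 216, 196 and 101 bases before the start, and each of them also holds ACGTG on both strands. Of all 35116 promoter windows of this length, 6.34% held CACGTG at least once and 0.0797% held 3 or more copies. The CDK6 window shown held no CACGTG and 2 copies of ACGTG, against 6 in the CDK4 window with both strands counted. The window of the other CDK6 start held neither, so the window shown is the CDK6 window with a match. Of all windows, 7.52% held at least 2 copies of ACGTG. A different motif is marked in each gene, so the capitals do not compare CDK4 with CDK6. Among the 7 genes of the set with a promoter in the table, CDK4 was the only one with CACGTG in the 250 bases before a start. A match describes letters only, and binding was not measured here.

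CDKN1A (ENSG00000124762, chromosome 6, 36676460 to 36687339, plus strand) encodes p21, an inhibitor of cyclin-dependent kinases and a target of p53. In HepG2 it stood at 323, 316 and 328 CPM at 0 h, at 232, 231 and 228 CPM at 24 h, and at 193, 193 and 183 CPM at 48 h. In APOA4-KO it stood at 159, 161 and 163 CPM at 0 h, at 103, 108 and 106 CPM at 24 h, and at 154, 150.1 and 154 CPM at 48 h. None of the 6 groups overlapped another, and every APOA4-KO library lay below every HepG2 library. APOA4-KO was lower by 1.00 ± 0.03 at 0 h, by 1.13 ± 0.03 at 24 h and by 0.31 ± 0.03 at 48 h (edgeR adjusted p = 1.87e-15, 1.38e-16 and 5.71e-09). In HepG2, CDKN1A fell by 0.48 at 24 h and by 0.76 at 48 h (4.45e-11 and 7.57e-14). In APOA4-KO it fell by 0.61 at 24 h (7.17e-13) and rose by 0.54 between 24 h and 48 h (7.59e-12), which left it 0.07 below 0 h at 48 h (0.0244). That last difference lost its call under 9 of 16 alternatives (adjusted p 2.94e-07 to 0.252), was -0.23 with library size alone, and without APOA4-KO 0 h replicate 3 it shrank to -0.05 (0.252), while leaving out APOA4-KO 0 h replicate 1 or 2 or APOA4-KO 48 h replicate 1 or 2 also ended the call (0.0998 to 0.153). The change from 0 h differed between the lines by 0.69 ± 0.04 at 48 h (adjusted p = 3.21e-11), and by -0.12 ± 0.04 at 24 h (0.0124, with 0.000174 to 0.104 over 22 alternatives, 9 of which ended the call, among them the omission of HepG2 0 h replicate 2, APOA4-KO 0 h replicate 2 or 3, or APOA4-KO 24 h replicate 1 or 3).

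The 250 bases before the CDKN1A start, chr6:36678464-36678713 (plus strand), are shown with the GC box GGGCGG in capitals on either strand, a motif bound by Sp1 and related factors, because CDKN1A had the widest distance between the lines before hypoxia among the abundant genes of the set.
CDKN1A: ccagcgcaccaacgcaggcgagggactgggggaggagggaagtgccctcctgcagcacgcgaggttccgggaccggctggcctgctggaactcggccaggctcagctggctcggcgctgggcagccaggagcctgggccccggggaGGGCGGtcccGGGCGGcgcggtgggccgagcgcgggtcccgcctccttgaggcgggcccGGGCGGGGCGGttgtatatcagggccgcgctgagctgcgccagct
It held 4 copies, beginning 104, 94, 45 and 40 bases before the start, the last 2 of which overlap by a base. Of all windows, 42.6% held GGGCGG at least once and 13.9% at least 3 times. Within the set, a CCND3 window held 5 copies, and the CDK4 window and a CDK6 window held 3 each. The CDKN1A window held neither CACGTG nor ACGTG.

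CDKN1B (ENSG00000111276, chromosome 12, 12715058 to 12722371, plus strand) encodes p27, the inhibitor that accumulates in resting cells. HepG2 libraries stood at 36.3, 38.1 and 38.1 CPM at 0 h, at 35.9, 32.5 and 30.4 CPM at 24 h, and at 43.2, 45.2 and 45.3 CPM at 48 h. APOA4-KO libraries stood at 39.6, 37.4 and 38.4 CPM at 0 h, at 50.5, 52.7 and 49.1 CPM at 24 h, and at 66.0, 67.9 and 66.3 CPM at 48 h. The lines overlapped at 0 h and were apart at both later times, with APOA4-KO at 48 h the highest of all groups. The difference between the lines was 0.04 ± 0.05 at 0 h (edgeR adjusted p = 0.65), 0.62 ± 0.05 at 24 h (3.72e-09) and 0.58 ± 0.05 at 48 h (7.88e-09). CDKN1B rose in APOA4-KO by 0.40 at 24 h and by 0.79 at 48 h (adjusted p = 1.57e-06 and 1.05e-10). In HepG2 it fell by 0.19 at 24 h (0.00744) and rose by 0.25 at 48 h (7.68e-04), and the 24 h fall lost its call without HepG2 24 h replicate 3 (adjusted p = 0.052) and when only those groups were fitted (0.145, the highest over 16 alternatives, whose lowest was 4.07e-04). Between the lines, the changes from 0 h differed by 0.59 ± 0.07 at 24 h (2.63e-06) and by 0.55 ± 0.07 at 48 h (4.42e-06).

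CDKN1C (ENSG00000129757, chromosome 11, 2883213 to 2885773, minus strand), which encodes the related inhibitor p57 from an imprinted locus, was hardly detected. Its count was 0 in 10 of the 18 libraries and at most 17 in the others. If each count were an independent read pair, a count of 0 would allow up to 3 counts, or 0.0392 CPM in the library with the lowest total. The excess of certain counts, described with the processing, means that a count need not be a read pair. The bound may therefore be too low. It did not pass the filter, and no difference between groups could be tested at this depth.

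RB1 (ENSG00000139687, chromosome 13, 48303726 to 48599436, plus strand), the target of the CDK4 and CDK6 kinases, varied less than most genes of the set. HepG2 libraries stood at 27.5, 33.1 and 28.3 CPM at 0 h, at 24.0, 23.9 and 27.5 CPM at 24 h, and at 37.0, 34.9 and 33.3 CPM at 48 h. APOA4-KO libraries stood at 26.4, 29.3 and 31.5 CPM at 0 h, at 38.1, 36.2 and 36.2 CPM at 24 h, and at 37.0, 39.6 and 35.7 CPM at 48 h. The lines overlapped at 0 h and 48 h and were apart at 24 h. The difference between the lines was -0.03 ± 0.08 at 0 h (edgeR adjusted p = 0.867), 0.55 ± 0.08 at 24 h (5.98e-06) and 0.09 ± 0.08 at 48 h (0.337), and the sign of the first and last changed under some scalings. RB1 rose in APOA4-KO by 0.34 at 24 h and by 0.36 at 48 h (0.00108 and 5.66e-04), the latter by 0.20 with library size alone. In HepG2 it fell by 0.24 at 24 h (0.0264) and rose by 0.48 from there to 48 h (7.86e-05). The fall at 24 h was -0.15 without HepG2 0 h replicate 2 (0.196) and lost its call without HepG2 24 h replicate 1 (0.101) or 2 (0.107), with 0.00434 to 0.196 over 16 alternatives, while the HepG2 rise of 0.24 from 0 h to 48 h (0.0229) lost its call without HepG2 0 h replicate 1 (0.085), HepG2 0 h replicate 3 (0.0727) or HepG2 48 h replicate 1 (0.0792), with 0.00292 to 0.085 over 16. The lines differed in their change by 0.58 ± 0.11 at 24 h (adjusted p = 3.51e-04) and 0.12 ± 0.11 at 48 h (0.448).

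MDM2 (ENSG00000135679, chromosome 12, 68808176 to 68850686, plus strand), the ubiquitin ligase of p53, moved in opposite directions in the lines at 24 h. HepG2 libraries stood at 98.2, 99.1 and 98.6 CPM at 0 h, at 75.3, 78.9 and 80.9 CPM at 24 h, and at 99.6, 94.8 and 104 CPM at 48 h. APOA4-KO libraries stood at 71.0, 71.5 and 71.0 CPM at 0 h, at 98.3, 100.2 and 96.2 CPM at 24 h, and at 93.8, 87.4 and 89.9 CPM at 48 h. The lines were apart at each time, with APOA4-KO lower at 0 h, higher at 24 h and lower again at 48 h. The differences were -0.47 ± 0.04 at 0 h (edgeR adjusted p = 9.25e-09), 0.33 ± 0.04 at 24 h (3.69e-07) and -0.14 ± 0.04 at 48 h (0.00387), the last of which lost its call with DESeq2 size factors (-0.09, adjusted p = 0.0548, the highest over 16 alternatives, whose lowest was 3.06e-06). HepG2 fell by 0.33 at 24 h (9.07e-07) and gave 0.01 at 48 h (0.887), while APOA4-KO rose by 0.47 and 0.35 (3.34e-09 and 1.82e-07), the latter by 0.19 with library size alone. Its fall of 0.12 between 24 h and 48 h (0.0124) lost its call without APOA4-KO 24 h replicate 2 (0.0542) or APOA4-KO 48 h replicate 2 (0.0751), with 2.64e-05 to 0.0751 over 16 alternatives. Its change from 0 h differed by 0.80 ± 0.05 at 24 h (1.32e-09) and 0.33 ± 0.05 at 48 h (3.69e-05). Of its exon bases, 9.21% are shared with neighbouring genes.

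**Figure D2:**
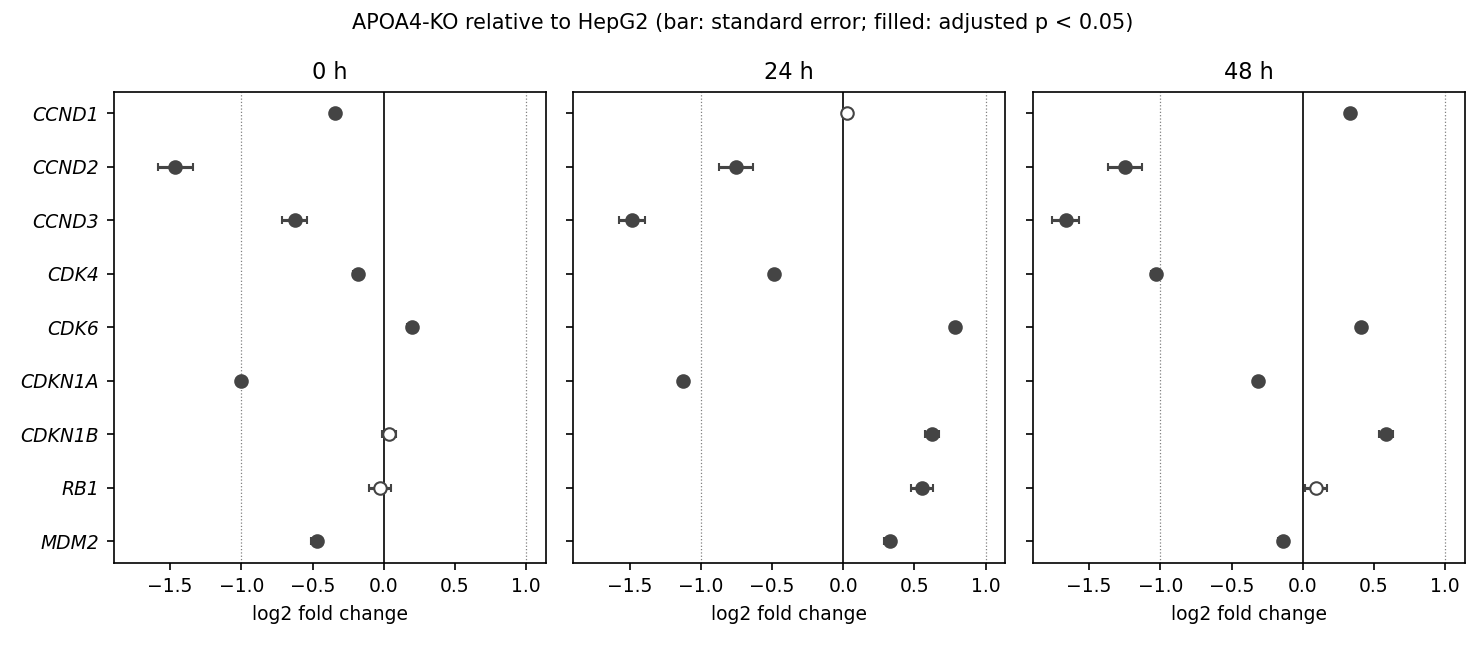
Difference between APOA4-KO and HepG2 at 0 h, 24 h and 48 h for the 9 tested genes, as log2 fold change with its standard error (filled points passed adjusted p under 0.05, dotted lines mark a 2-fold difference). CCND3 and CDK4 moved left with time, to -1.67 and -1.03 at 48 h, and CCND1 crossed from -0.34 to 0.33.

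Counted over the set, differences were frequent, as they were among all genes. Between the lines at 0 h, 7 of the 9 tested genes were called, against 30.5% of all tested genes, with 1 higher (background 12.9%) and 6 lower (17.6%). At 24 h 8 were called (48.1% of all genes), 4 higher (23.6%) and 4 lower (24.6%). At 48 h 8 were called (50.8%), 3 higher (23.5%) and 5 lower (27.3%). At least 2-fold and called were CCND2 and CDKN1A at 0 h (4.31% of all genes), CCND3 and CDKN1A at 24 h (7.77%), and CCND2, CCND3 and CDK4 at 48 h (13.6%). CDK4 at 48 h lay at the limit, with -0.98 under DESeq2 size factors and a value just short of 2-fold without APOA4-KO 48 h replicate 2. The 9 genes had medians of -0.34, 0.03 and -0.14 at 0 h, 24 h and 48 h, beside medians of -0.01, 0.01 and -0.04 over all genes. The 9 genes were not drawn as a sample of the genome, and these shares are descriptions.

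In HepG2, 9 of 9 were called at 24 h against 0 h (29.6% of all genes), 2 higher (11.4%) and 7 lower (18.3%), 6 at 48 h against 0 h (27.7%), 4 higher (13.1%) and 2 lower (14.6%), and 7 at 48 h against 24 h (30.5%), 6 higher (18.7%) and 1 lower (11.9%). None reached 2-fold in these (3.08%, 2.18% and 2.12% of all genes did). In APOA4-KO, 9 of 9 were called at 24 h (44.4%) and 9 of 9 at 48 h (49.9%) against 0 h, each with 6 higher (21.5% and 23.9%) and 3 lower (22.8% and 25.9%), and 5 at 48 h against 24 h (41.3%), 3 higher (21.9%) and 2 lower (19.4%). CCND3 alone reached 2-fold, at 24 h (5.88% of all genes) and at 48 h (12.2%). The medians of the 9 genes from 0 h were -0.33 at 24 h and 0.09 at 48 h in HepG2 and 0.36 and 0.35 in APOA4-KO, beside -0.03, -0.03, -0.01 and -0.07 over all genes. The line difference in the change was called for 9 of 9 at 24 h (32.2%), 6 positive (16.8%) and 3 negative (15.4%), with 0 beyond 2-fold (2.59%), and for 7 at 48 h (36.4%), 5 positive (18.6%) and 2 negative (17.8%), and CCND3 at 48 h was beyond 2-fold (7.42%). The comparisons of both times with 0 h share the 0 h libraries.

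**Figure D3:**
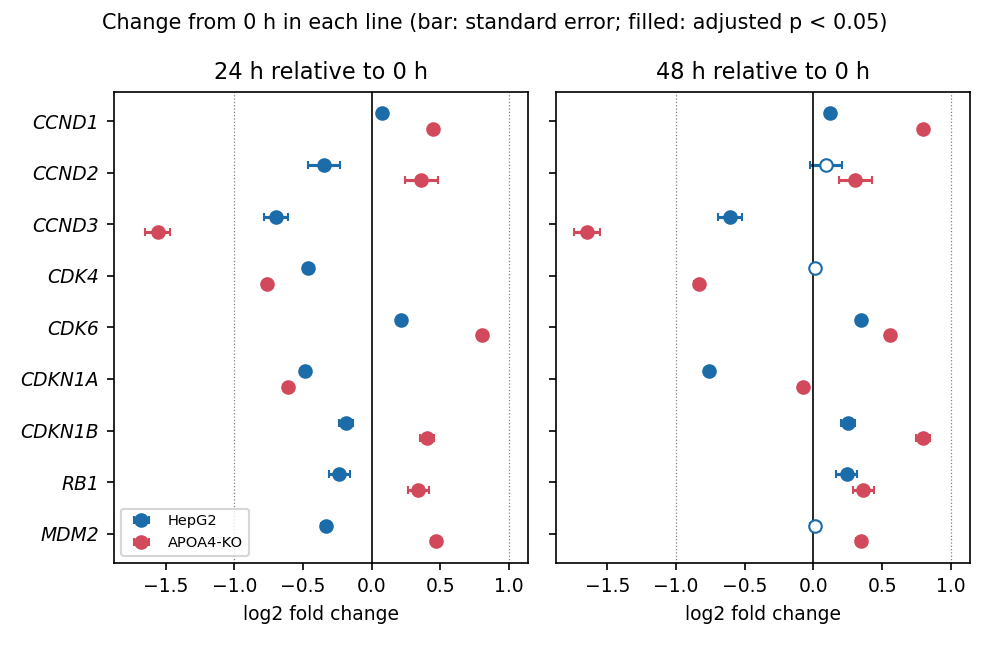
Change from 0 h in each line at 24 h and 48 h as log2 fold change with its standard error, HepG2 in blue and APOA4-KO in red (filled points passed adjusted p under 0.05, dotted lines mark 2-fold). CCND2, CDKN1B, RB1 and MDM2 fell in HepG2 and rose in APOA4-KO at 24 h, and CDK4 at 48 h gave 0.01 in HepG2 and -0.84 in APOA4-KO.

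Other genes of the pathway were taken in 5 lists. Of all genes tested, 12.9% were called higher and 17.6% lower in APOA4-KO at 0 h, with 23.6% higher and 24.6% lower at 24 h, and 23.5% higher and 27.3% lower at 48 h. Of 22 E2F target genes of S phase, which make and assemble the replication machinery, 8 were higher and 2 lower in APOA4-KO than in HepG2 at 0 h, 4 higher and 10 lower at 24 h, and 0 higher and 21 lower at 48 h (median -1.28), with CDT1 the gene not called at 48 h. In HepG2, 18 of the 22 fell at 24 h, against 18.3% of all genes. There all 22 rose between 24 h and 48 h (median 0.45), against 18.7% of all genes. In APOA4-KO, 21 fell at 24 h (22.8% of all genes), and all 22 were below 0 h at 48 h (median -1.17, 25.9%). The line difference in the change at 48 h was called as negative for all 22 (median -1.35), against 17.8% of all genes. At 48 h CDC6, which loads replication origins, was lower in APOA4-KO by 2.42 (edgeR adjusted p = 9.57e-17), UHRF1, which maintains DNA methylation, by 2.11 (1.03e-15), and TK1, which salvages thymidine, by 2.03 (1.89e-16).

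A further list held 12 cyclins, cyclin-dependent kinases and activators outside the set. It is labelled G1/S cyclins and kinases in the figure, although not all of its genes, such as CDK5, CDK8 and CCNC, belong to that step. In APOA4-KO, 5 of the 12 were higher and 2 lower at 0 h (12.9% and 17.6% of all genes). At 24 h 5 were higher and 4 lower (23.6% and 24.6%), and at 48 h 4 were higher and 7 lower (23.5% and 27.3%), with a median of -0.34. The share lower at 0 h was near the 17.6% of all genes. The E-type cyclins, which act after the D-type cyclins, were among the lower ones at 48 h, CCNE2 by 2.70 (adjusted p = 6.49e-07) and CCNE1 by 1.19 (2.05e-10), with CDK5 lower by 1.12. MNAT1 and CCNH, subunits of the CDK-activating kinase, were higher by 0.62 and 0.38, and CDK8 by 0.50. Of 14 pocket proteins and E2F factors, 5 were higher and 1 lower at 0 h (12.9% and 17.6% of all genes). At 24 h 6 were higher and 4 lower (23.6% and 24.6%), and at 48 h 3 were higher and 8 lower (23.5% and 27.3%), with a median of -0.35. The shares lower at 24 h and higher at 48 h were near those of all genes. Of these, the E2F factors E2F7, E2F2 and E2F8 were lower at 48 h by 2.41, 1.94 and 1.82, and LIN54, E2F5 and the RB1 relative RBL2 were higher by 0.81, 0.72 and 0.24.

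Of 12 genes for INK4 inhibitors and for the turnover of inhibitors and cyclins, 4 were higher and 2 lower in APOA4-KO at 0 h, 5 higher and 3 lower at 24 h, and 3 higher and 5 lower at 48 h (median -0.08). The shares lower at 0 h and 24 h were near the 17.6% and 24.6% of all genes, and the share higher at 48 h was near the 23.5%. At 48 h 27.3% of all genes were lower. SKP2 and CKS1B, parts of the ligase that marks the CDKN1B protein for degradation, were lower at 48 h by 0.87 and 0.90, beside the higher CDKN1B RNA, and CDKN2C, an INK4 inhibitor of CDK4 and CDK6, was lower by 0.90. AMBRA1 and FBXO31, which promote the degradation of D-type cyclin proteins, were higher by 0.85 and 0.67, and FBXW7, which does so for E-type cyclins, by 0.38. Of 28 p53 pathway genes, 2 were higher and 19 lower in APOA4-KO at 0 h (median -0.39), 4 higher and 18 lower at 24 h (-0.38), and 8 higher and 17 lower at 48 h (-0.39), while of the 2 p53 targets of the set CDKN1A was lower at all 3 times and MDM2 was lower at 0 h, higher at 24 h (0.33) and lower at 48 h, a call lost with DESeq2 size factors. FDXR, PHLDA3 and FAS were lower at 48 h by 1.68, 1.60 and 1.47, while GDF15, a stress-induced cytokine, was higher by 2.55 and PLK3 and BBC3 by 0.95 and 0.84.

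**Figure D4:**
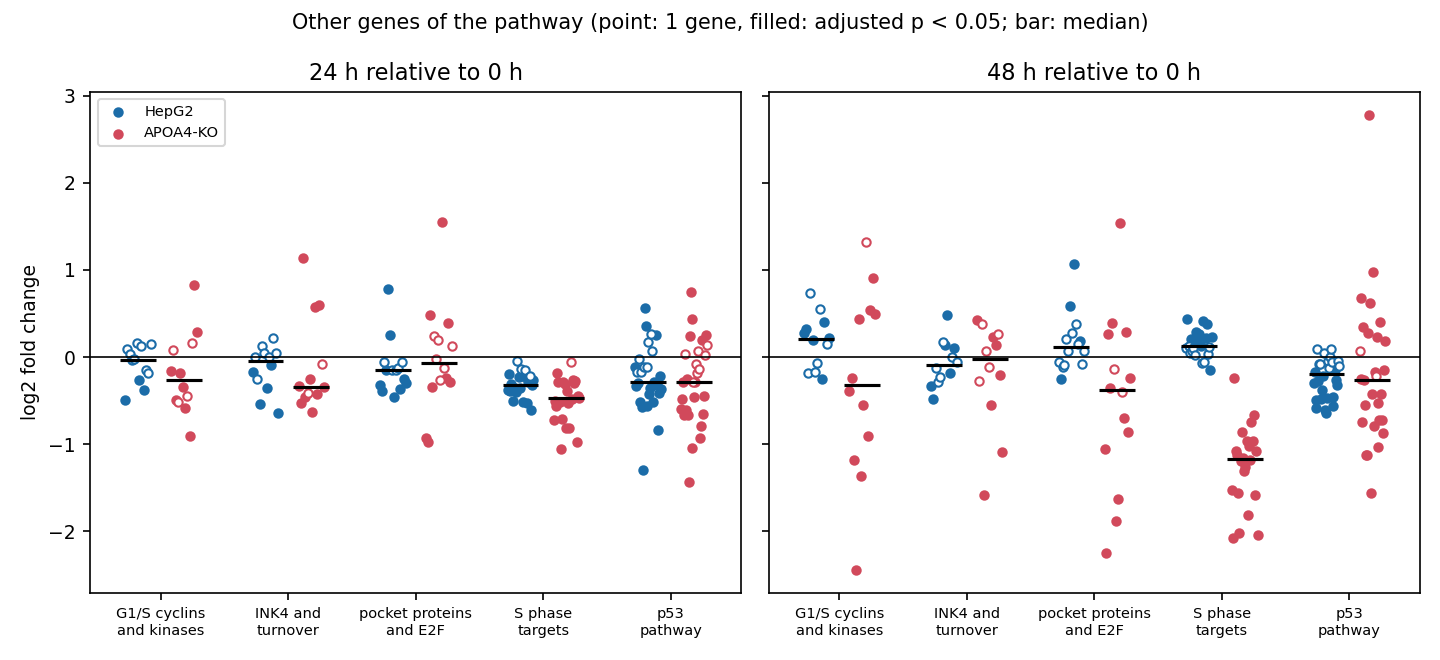
Change from 0 h at 24 h and 48 h of the other pathway genes, by list, as log2 fold change (points are genes, HepG2 blue, APOA4-KO red, filled at adjusted p under 0.05, black bars are medians). The S phase targets had a median of 0.13 in HepG2 and -1.17 in APOA4-KO at 48 h.

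As a check of the hypoxia, all 12 HIF target genes rose from 0 h at 24 h and at 48 h in both lines. The medians at 48 h were 1.67 in HepG2 and 2.06 in APOA4-KO. Of all genes, 11.4% and 13.1% rose at 24 h and 48 h in HepG2, and 21.5% and 23.9% in APOA4-KO. Before hypoxia all 12 were already higher in APOA4-KO than in HepG2 (median 0.41, against 12.9% of all genes). At 24 h 11 were higher (median 1.04, against 23.6%). At 48 h 10 were higher and 2 lower, with ANKRD37, CA9 and VEGFA higher by 2.12, 2.09 and 1.79 and PDK1 and PFKFB4 lower by 0.38 and 0.27.

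Across the 18 libraries, which fall into the same 6 groups for every gene, the genes most like each member were named by Pearson's r of log2 CPM among 8968 genes, as a description. CDK4 was most like LIG1, the ligase of replicating DNA (r = 0.991), and PRADC1 (0.989). CDK6 was most like OSMR, a cytokine receptor subunit (0.99), and SMG1 (0.988). CCND1 was most like ALPK2 (0.985) and TMEM45B (0.98), CCND2 like VIL1 (0.968) and SPP1 (0.964), and CCND3 like AKT1S1 (0.99) and VPS26B (0.989). CDKN1A was most like CERS2 (0.982) and P2RY2 (0.98), CDKN1B like SEC24B (0.981) and STRN3 (0.976), RB1 like TRIM33 (0.94) and BTBD1 (0.939), and MDM2 like SLC30A1 (0.943) and GPC6 (0.94).

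Set side by side per gene length, the order of levels changed. In HepG2 at 0 h the mean FPKM was 107 for CDKN1A, 74.6 for CDK4, 62.0 for CCND1, 6.97 for CDK6, 4.59 for RB1, 4.28 for CCND3 and 1.30 for CCND2. In APOA4-KO at 48 h it was 77.1 for CCND1, 46.4 for CDKN1A, 33.5 for CDK4, 10.7 for CDK6, 5.28 for RB1, 0.80 for CCND3 and 0.53 for CCND2. These groups differ in both line and time, and the order changed with time in both lines. CDKN1A led in HepG2 at 0 h and 24 h, and CCND1 led in APOA4-KO at 24 h and 48 h. CDK4 led in HepG2 at 48 h, where CCND1 (68.1) already stood above CDKN1A (63.9). CDK4 also led in APOA4-KO at 0 h (66.8), above CDKN1A (54.5) and CCND1 (49.6). CDKN1B and MDM2 were left out of this order because the lengths implied by their FPKM, 9454 and 8491 bases, differ by over 1.5 times from the 2811 and 13284 exon bases of their gene models.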

How the data were processed

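Per the study's methods, the authors used fastp for trimming, HISAT2 for alignment to GRCh38.p13 and featureCounts for counting, while the submitters' processing notes name StringTie. The deposited counts are whole numbers per gene without normalization. Counts of 4, 8 and 12 were in excess, so a count need not be 1 read pair, and precision is below what the totals give. The deposited FPKM values divide each count by gene length and library total. Strand use in counting is not given in the sources used here. Library preparation used dUTP.

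The counts were tested with edgeR 4.0.16 (TMM, filterByExpr, quasi-likelihood, 1 coefficient per group, 18 libraries, 11 comparisons) in R 4.3.3, with Benjamini-Hochberg adjustment over 19743 genes. The fits were also run on simulated data, with independent counts and few changed genes. That setting does not copy the excess of certain counts or the broad change between the lines, so it does not vouch for the p-values. The alternatives used DESeq2 1.42.0 and limma 3.58.1. Gene positions and exon overlaps came from GENCODE release 29. Promoters were from RefSeq, with 7 of 10 genes matched, and CCND1, CCND2 and CDKN1C were not. The 10 genes, the lists and the tests were chosen with earlier results of these data known. All 10 members are named, and from each list up to 3 genes in each direction with the largest called difference between the lines at 48 h and, in whichever group is higher, a mean count of 100 or more. TSPAN31 and CDT1 were named after their values were seen. For each tested member, the 2 most alike genes among those with a mean log2 CPM of at least 3 are given.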

Additional observations from a re-analysis of the deposited data

Results flagged for a closer look

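The change from 0 h differed between APOA4-KO and HepG2, by edgeR's test of that difference, for 9 genes at 24 h and 7 at 48 h. Positive values mean a larger rise or a smaller fall in APOA4-KO, or a rise there where HepG2 fell. The last held at 24 h for CCND2, CDKN1B, RB1 and MDM2. At 24 h the differences on the log2 scale were 0.37 for CCND1, 0.71 for CCND2, -0.86 for CCND3, -0.30 for CDK4, 0.59 for CDK6, -0.12 for CDKN1A, 0.59 for CDKN1B, 0.58 for RB1 and 0.80 for MDM2. At 48 h they were 0.67 for CCND1, -1.04 for CCND3, -0.85 for CDK4, 0.21 for CDK6, 0.69 for CDKN1A, 0.55 for CDKN1B and 0.33 for MDM2. CDKN1A was the gene whose difference changed sign between the times. With 3 libraries in a group, single libraries were not screened for outlying values.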

How the results depend on the processing

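Of 99 results on single genes (9 genes in 11 comparisons), 84 were called, 72 of them under every alternative, and 12 lost the call under at least 1. Of the 15 not called, 3 were called under some. With library size alone and both FPKM fits these were CCND1 between the lines at 24 h (0.09), CCND1 in HepG2 from 24 h to 48 h (0.13) and CDK4 in APOA4-KO from 24 h to 48 h (-0.20), and CDK4 was called under 7 of 16, also with the CPM filter (adjusted p = 0.0191), counts divided by 4 (0.0403), and without APOA4-KO 24 h replicate 2 (0.031) or APOA4-KO 48 h replicate 3 (0.0339). Library size alone moved the median of all genes between the lines at 48 h from -0.04 to -0.19. Of the called values, 34 moved by over 1.5 times under some alternative, 31 with log2(FPKM + 1) (CCND2 and CCND3 the most often), 16 with library size alone and 2 with 1 library left out. The number of genes called stayed within 1.5 times in each comparison. The number at 2-fold at 0 h went from 2 to 1 with DESeq2 size factors, library size alone, DESeq2, a CPM filter, log2(FPKM + 0.1), counts divided by 4 or only the groups compared, and to 0 with log2(FPKM + 1), and lay between 1 and 2 with 1 library left out (CDKN1A lies at the limit). With log2(FPKM + 1), which shrinks low levels, it went from 2 to 1 at 24 h, from 3 to 2 at 48 h (CCND2 at -0.65) and from 1 to 0 in APOA4-KO at 24 h. At 48 h it was also 2 with DESeq2 size factors, DESeq2, or without APOA4-KO 48 h replicate 2 (CDK4). For the line difference at 48 h it went from 1 to 2 with library size alone or log2(FPKM + 0.1), and was between 0 and 1 with 1 library left out, with 0 without APOA4-KO 0 h replicate 2 or APOA4-KO 48 h replicate 2.

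Signs turned for differences that were not called. RB1 at 0 h became 0.0026 with DESeq2 size factors, 0.0027 with DESeq2, 0.0004 and 0.0006 with log2(FPKM + 1) and log2(FPKM + 0.1), 0.0053 with only the groups compared, and lay between -0.0902 and 0.0564 with 1 library left out (0.0382 in another such fit). With library size alone, log2(FPKM + 1) and log2(FPKM + 0.1), RB1 became -0.0553, -0.0476 and -0.0554 between the lines at 48 h, -0.1074, -0.0924 and -0.1074 in APOA4-KO from 24 h to 48 h, and -0.0527, -0.0480 and -0.0560 for the line difference at 48 h. RB1 from 24 h to 48 h was also -0.0012 with the CPM filter and lay between -0.0186 and 0.0569 with 1 library left out. CCND2 for the line difference at 48 h became -0.0132 with log2(FPKM + 1). With 1 library left out, MDM2 in HepG2 at 48 h lay between -0.0016 and 0.0617, and from 24 h to 48 h in APOA4-KO CCND2 lay between -0.1559 and 0.0098 and CCND3 reached 0.0058. The causes were not tested.

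Same-numbered libraries showed no clear shared deviation (correlations -0.0539 to 0.0511), so no pairing by number was detected. With 3 libraries in a group, such correlations over all genes cannot exclude a shared culture or day. With the replicate number as a block, the number of genes called in APOA4-KO at 48 h went from 9 to 8, as CCND2 gave 0.30 (edgeR adjusted p = 0.0573), and the number changed in no other comparison.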
